A study of Saccharomyces cerevisiae with 5 samples.

Results

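The ergosterol genes of budding yeast were followed in cells without and with VTS1. The group holds 31 genes, chosen by their symbols: the enzymes that build ergosterol from acetyl-CoA, their electron donors, the regulators UPC2 and ECM22, and the genes for sterol esterification, acetylation and uptake. All 31 were found among the 5656 genes that had a probe set of their own on the array, and 1 probe set, the one with the highest mean, stood for each gene. RNA had been measured on 3 arrays of a vts1 deletion strain and 2 arrays of the wild type. The deletion had been made in BMA64, which derives from the laboratory strain W303, and BMA64 itself was the wild type. Both strains were grown in SD, a synthetic glucose medium, at 30 degrees and harvested at an OD600 of 0.4. The titles of deletion arrays 1 and 2 carry the designations dvts1-1 and dvts1-2, and that of array 3 carries no such designation. Nothing in the labels tells separate cultures or clones from repeat arrays of 1 culture, so the p-values cover the spread between arrays only, and this may be technical. Vts1 is an RNA-binding protein that recognises hairpins in mRNA through its SAM domain and promotes decay of the bound mRNA, and the study asked which transcripts go up or down without it.

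Ergosterol is the main sterol of the yeast plasma membrane. It is made in the mevalonate pathway, which turns acetyl-CoA into farnesyl diphosphate, followed by the joining and closing of squalene to lanosterol and a late series of demethylations, reductions and desaturations, several of which need oxygen and heme. Upc2 and Ecm22, a pair of zinc-cluster transcription factors, bind sterol regulatory elements in promoters of these genes and activate their transcription. Surplus sterol is esterified by Are1 and Are2 and stored in lipid droplets.

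Of the ergosterol genes, 3 fell in the deletion strain, 27 did not pass the test, and ARE2 was too dim to be tested. ECM22 fell 1.90-fold, ERG28, the scaffold of the C-4 demethylation complex, 1.63-fold, and ERG27, the 3-keto reductase of the same complex, 1.40-fold. No member rose past the threshold. Of the 30 members bright enough to be tested, 3 were called lower and 0 higher with limma at a Benjamini-Hochberg adjusted p under 0.05. That is 10% lower and 0% higher among the members, where 3.05% were lower and 4.39% higher among all 6294 probe sets tested. At an unadjusted p under 0.05, 5 members were lower and 2 higher, or 16.7% and 6.67%, beside 11.1% and 10.3% of all probe sets tested. The median log2 change of the members (deletion minus wild type) was -0.18, beside -0.04 over all probe sets tested, and 24 of the 30 members had a negative log2 change, or 80%, beside 54.8% of all probe sets. In 14 members all deletion arrays lay below both wild type arrays and in 1 they lay above, or 46.7% and 3.33%, where the shares over all probe sets were 21.7% and 16.8%. The median SE was 0.13 for the members and 0.17 over all probe sets tested, so a small change separates the groups more easily among the members. The part of this in the shares was not tested. Of the 30 members, 19 lay within 1.2-fold either way, or 63.3%, beside 61.6% of all probe sets tested. Among the 27 members without a call, the 95% interval of the change stayed inside 1.5-fold both ways for 21 and reached beyond it for 6, namely ERG12, ERG9, ERG4, CYB5, UPC2 and ATF2. A lower signal in a culture can come from fewer cells with the transcript or from less of it per cell, which cannot be told apart here.

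**Figure D1:**
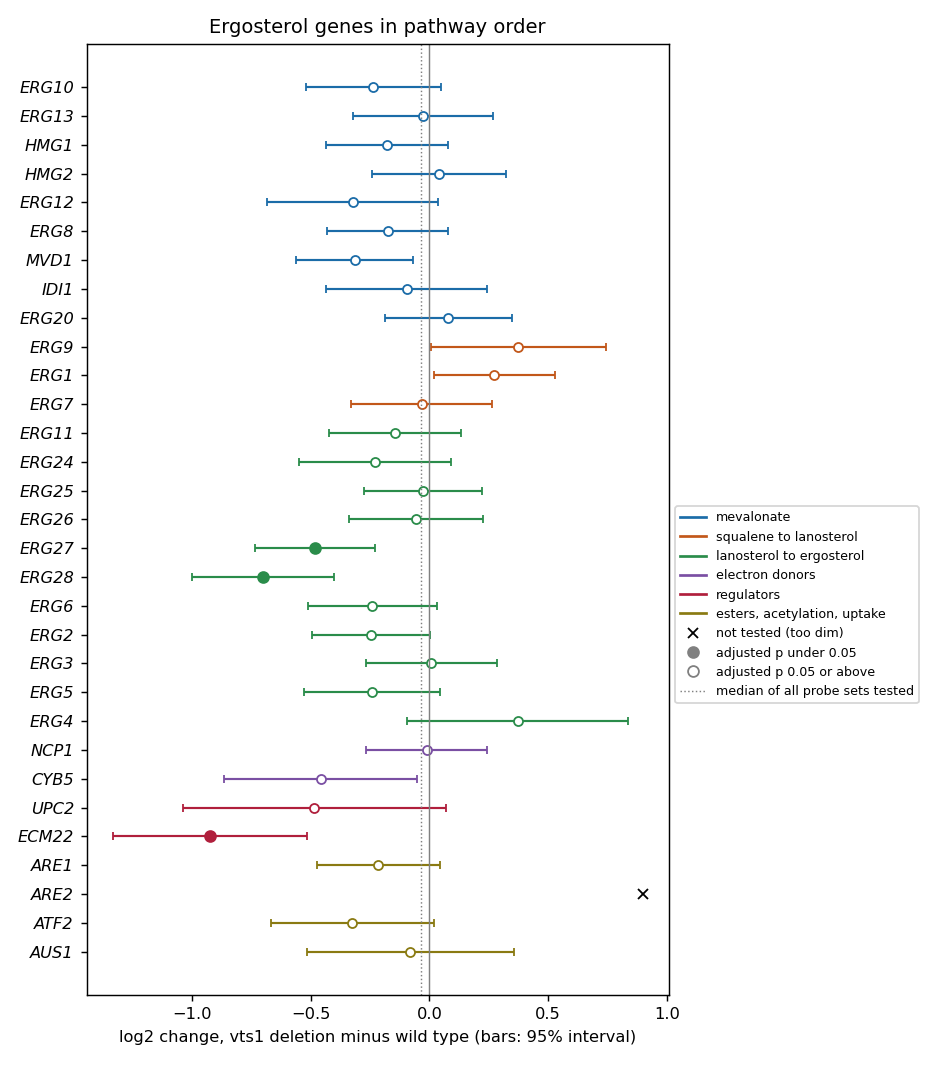
Log2 change of each ergosterol gene, vts1 deletion minus wild type (x axis), with the genes in pathway order down the page; bars are 95% intervals of the limma fit on 3 deletion and 2 wild type arrays. Filled points, ERG27, ERG28 and ECM22, are the 3 members called lower, most other points lie between -0.5 and 0.5, and ARE2 (cross) was too dim to be tested.

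VTS1 itself had a signal of 19, 17.8 and 55 on the deletion arrays, at background, against 4952.3 and 5079.9 on the wild type arrays. On each array 74.2% to 83.0% of probe sets were brighter than its background level. The 3' actin probe set divided by the 5' one, a measure of RNA integrity, gave a ratio of 1.51, 1.35 and 1.25 on the deletion arrays and 1.34 and 1.17 on the wild type arrays, so the groups overlapped. The same ratio was 3.02, 3.64 and 5.32 on the deletion arrays and 3.39 and 2.42 on the wild type arrays for SRB4, where deletion array 3 stood apart, and 2.60, 2.79 and 2.37 against 2.70 and 2.82 for TBP. The part of these ratios in the results below was not tested.

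The largest log2 change among the called members was that of a regulator. ECM22 (YLR228C) had a signal of 582.6, 815.2 and 740.7 on the deletion arrays, against 1362.1 and 1317.3 on the wild type arrays. Every deletion array was well below both wild type arrays, and the groups were far apart compared with the spread inside each. The mean signal was 713 ± 119 (SD, n = 3) in the deletion strain and 1340 ± 31.7 (SD, n = 2) in the wild type, a log2 change of -0.92 ± 0.19 (SE; limma adjusted p = 0.00912). Its paralog UPC2 (YDR213W), the factor that takes over most of the induction when sterol is short, was dimmer, with 439.4, 313.9 and 325.2 in the deletion strain, against 469.6 and 525.9 in the wild type. The deletion arrays again lay below the wild type arrays, with deletion array 1 close to wild type array 1. UPC2 had no call, with a log2 change of -0.48 ± 0.25 (limma adjusted p = 0.304) and an interval from -1.04 to 0.07. The change of ECM22 minus that of UPC2 was -0.44 on the log2 scale. An exact two-sided permutation test of the within-array difference gave p = 0.5 (0.5 adjusted over 3 paralog pairs), where the smallest p that 3 against 2 arrays allow is 0.1. The call of ECM22 was lost without the filter on dim probe sets (adjusted p = 0.128).

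**Figure D2:**
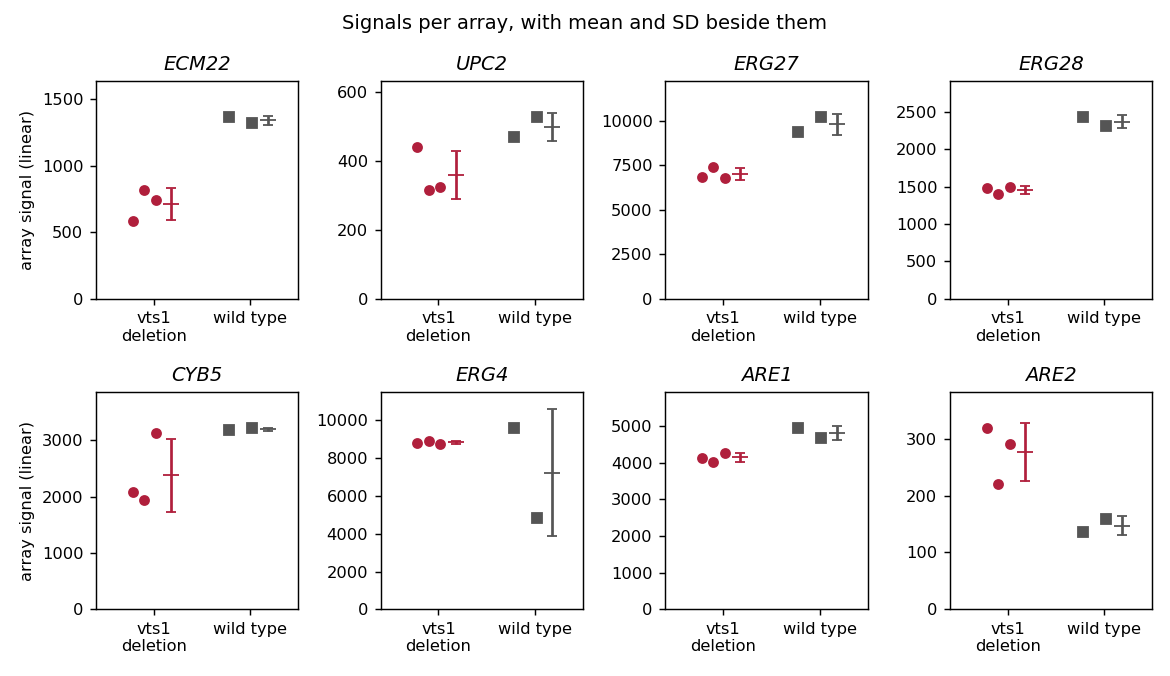
Array signal on a linear scale (y axis) for 8 ergosterol genes on the 3 vts1 deletion arrays (circles) and the 2 wild type arrays (squares), with the mean and SD of each group beside the points. The groups are clearly apart for ECM22, ERG27 and ERG28, deletion array 3 of CYB5 lies near the wild type, and the wild type arrays of ERG4 disagree.

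Among the 9 mevalonate genes, which make the isoprenoid precursors, none was called, and 1 had an unadjusted p under 0.05. Of these genes, 7 had a negative log2 change and the median was -0.18. The lowest p belonged to MVD1 (also called ERG19), the mevalonate pyrophosphate decarboxylase. Its signal was 8951.1, 8680.4 and 9204.1 in the deletion strain, against 10673.4 and 11594.8 in the wild type. The groups did not overlap, yet the log2 change of -0.31 ± 0.11 missed the threshold (limma adjusted p = 0.128). ERG12, mevalonate kinase, had a log2 change of -0.32 ± 0.17, the most negative of this stage by a small margin. This probe set of ERG12 is of a type that may match more than 1 transcript. The gene's 3 other probe sets also gave negative values, between -0.60 and -0.22. The one at -0.22 was above background on 0 of the 5 arrays, so its sign carries no weight. The 2 that were tested had no call. Their groups overlapped at -0.47, while at -0.60 all deletion arrays lay below the wild type. ERG10, the thiolase of the first step, had 25613.1, 22397 and 19534.6 in the deletion strain, against 26318.3 and 26399.4 in the wild type, with deletion array 1 close to the wild type and deletion array 3 the lowest. ERG8, phosphomevalonate kinase, had a log2 change of -0.18 ± 0.12. ERG13, HMG-CoA synthase, IDI1, the isomerase, and ERG20, farnesyl diphosphate synthase, had overlapping groups and changes of -0.03, -0.10 and 0.08.

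The HMG-CoA reductases catalyse the main controlled step of the pathway, and yeast has a pair of them. HMG1, the form made mostly with oxygen, had a signal of 9399.6, 10064.7 and 10094.5 in the deletion strain, against 10389.4 and 11953 in the wild type. HMG2, the form that is degraded when sterol precursors are plentiful, had 3667.8, 3684.5 and 4267.3 in the deletion strain, against 3899.7 and 3615.8 in the wild type. HMG1 lay slightly lower on every deletion array, while the groups of HMG2 overlapped. Neither was called: the log2 change was -0.18 ± 0.12 for HMG1 and 0.04 ± 0.13 for HMG2 (limma adjusted p = 0.426 and 0.887). The difference between these changes, HMG2 minus HMG1, was 0.22 (exact two-sided permutation p = 0.3, 0.45 adjusted over the 3 pairs).

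The 3 genes between farnesyl diphosphate and lanosterol had a median log2 change of 0.27, positive where the stages before and after it had negative medians. ERG1, squalene epoxidase, which introduces the oxygen of the sterol ring, had 8307.2, 7715.5 and 7328.7 in the deletion strain, against 6430.6 and 6424.1 in the wild type. It was the only tested member whose deletion arrays all lay above the wild type arrays. Its log2 change of 0.27 ± 0.12 was not called (unadjusted p = 0.0371, limma adjusted p = 0.202). ERG9, squalene synthase, the branch point between sterols and other isoprenoids, had 4802.7, 3471.8 and 4386.5 in the deletion strain, against 3736.9 and 2784.4 in the wild type. Its groups overlapped through deletion array 2, and the log2 change was 0.37 ± 0.17 (limma adjusted p = 0.226). ERG7, lanosterol synthase, had a change of -0.03 ± 0.14.

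The late pathway, with 11 genes, held both enzyme-stage calls. ERG28 (YER044C), an endoplasmic reticulum protein that tethers the C-4 demethylation enzymes, had a signal of 1477.9, 1399 and 1493.3 on the deletion arrays, against 2427.4 and 2307.6 on the wild type arrays. These arrays agreed closely inside each group and the groups were far apart. The log2 change was -0.70 ± 0.14 (limma adjusted p = 0.00757). ERG27 (YLR100W), which reduces the keto group at the end of each C-4 demethylation round, had 6813.7, 7423.9 and 6787.5 in the deletion strain, against 9382.9 and 10188.8 in the wild type. All deletion arrays lay below the wild type, with a log2 change of -0.48 ± 0.12 (limma adjusted p = 0.0269). This call was lost when wild type replicate 2 or either of deletion replicates 2 and 3 was left out, and without the variance trend or the filter on dim probe sets (adjusted p between 0.0771 and 0.140).

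The other enzymes of the same C-4 complex had overlapping groups. ERG25, the methyl oxidase that opens the round, had 28948.1, 27131 and 28463.9 in the deletion strain, against 27082.4 and 30386.1 in the wild type, a log2 change of -0.03 ± 0.11. ERG26, the C-3 dehydrogenase, had a change of -0.06 ± 0.13, with an interval from -0.34 to 0.22. Whether ERG27 and ERG28 changed differently from ERG25 and ERG26 was not tested.

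The other 7 late enzymes had no call. ERG11, the cytochrome P450 that removes the C-14 methyl group and is the target of azole drugs, had 26950.5, 23949.9 and 21036.9 in the deletion strain, against 25840 and 26885.6 in the wild type, so its groups overlapped. ERG24, the C-14 reductase, had a log2 change of -0.23 ± 0.15, also with overlapping groups. ERG6, the C-24 methyltransferase, ERG2, the C-8 isomerase, and ERG5, the C-22 desaturase, shared almost the same value, each at -0.24 (SE between 0.11 and 0.13), and in each all deletion arrays lay below both wild type arrays. ERG3, the C-5 desaturase, had a change of 0.01 ± 0.13. ERG4, the reductase of the last step, had 8783, 8904.2 and 8744.1 on the deletion arrays, against 9574.2 and 4841.6 on the wild type arrays. The deletion arrays were nearly equal and the wild type arrays lay on either side of them. The log2 change of ERG4 was 0.37 ± 0.21 (limma adjusted p = 0.355). It depended on the wild type array kept: 0.86 without wild type replicate 1 (adjusted p = 0.00211) and -0.12 without wild type replicate 2 (adjusted p = 0.758).

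**Figure D3:**
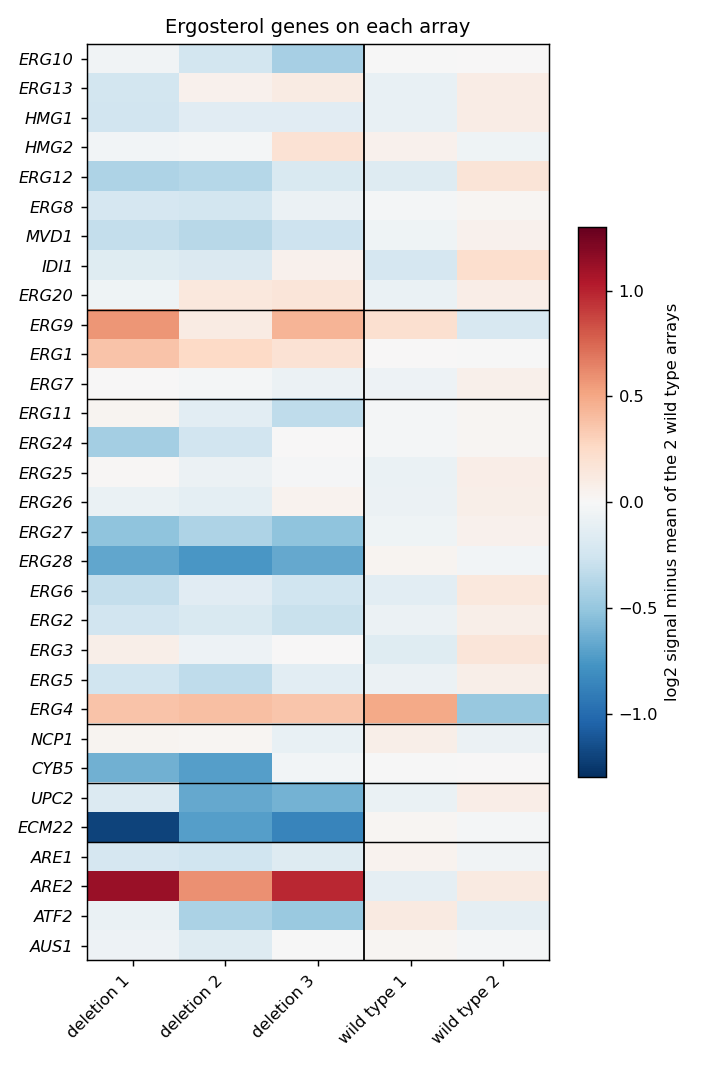
Log2 signal of each ergosterol gene (rows, in pathway order, with lines between stages) on each array (columns), minus the mean of the 2 wild type arrays, in red where higher and blue where lower. ERG27, ERG28 and ECM22 are blue on all 3 deletion arrays, ARE2 is red on all 3, CYB5 is blue on deletion arrays 1 and 2, and ERG4 differs between the wild type arrays.

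The electron donors differed from each other in how their arrays behaved. NCP1, the reductase that feeds electrons to Erg11 and squalene epoxidase, had overlapping groups and a log2 change of -0.01 ± 0.12. CYB5, cytochrome b5, which serves the late desaturation and demethylation steps, had 2081.1, 1942 and 3126.8 on the deletion arrays, against 3178.7 and 3220.4 on the wild type arrays. Deletion arrays 1 and 2 were low and deletion array 3 was close to the wild type. Its log2 change was -0.46 ± 0.19 (limma adjusted p = 0.180). Without deletion replicate 3 it was -0.67 (adjusted p = 0.0332).

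Of the genes that store, modify or import sterols, the acyltransferase pair gave opposite signs. ARE1 (YCR048W) had 4139.9, 4024.9 and 4281.8 in the deletion strain, against 4951 and 4675.7 in the wild type. ARE2 (YNR019W), known as the main sterol acyltransferase of aerobic cells, had 318.6, 220.9 and 289.9 in the deletion strain, against 135.6 and 158.5 in the wild type. All deletion arrays lay below the wild type for ARE1 and above it for ARE2. ARE1 had a log2 change of -0.21 ± 0.12 and no call (limma adjusted p = 0.337). The mean signal of ARE2 was below the minimum of 250.3 set for testing, so it has no test in the reported comparison. Its log2 change was 0.90, and without the filter its limma adjusted p was 0.203. Wild type array 1 was below the array's background level of 161.1 for ARE2, and the other 4 arrays were above theirs. The change of ARE2 minus that of ARE1 was 1.11, with the within-array difference higher on all 3 deletion arrays than on both wild type arrays. The exact two-sided permutation p of 0.1 (0.3 adjusted over the 3 pairs) is the smallest this design allows.

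ATF2, which acetylates sterols for export, had 2385.5, 1902.7 and 1814.5 in the deletion strain, against 2741.4 and 2334.3 in the wild type. Deletion array 1 lay between the wild type arrays, and the log2 change of -0.32 ± 0.16 had no call (limma adjusted p = 0.265). AUS1, a sterol importer of anaerobic cells, had 557.6, 519.6 and 581.3 in the deletion strain, against 594 and 573.7 in the wild type at its brightest probe set, a log2 change of -0.08 ± 0.20. The array carried 6 probe sets for AUS1, and they disagreed in size. All 6 had negative changes, from -1.95 to -0.08. The probe set at -1.95 was above background on 3 of the 5 arrays and the one at -0.16 on 1, so these values are uncertain. Of the 6, 2 were bright enough to be tested. The second of these had 148.1, 206.2 and 197.9 in the deletion strain, against 388.4 and 494.1 in the wild type, and was called lower (log2 change -1.27 ± 0.32, limma adjusted p = 0.0309). Its mean signal was 184.1 in the deletion strain and 441.3 in the wild type, so it passed the minimum of 250.3 only through the wild type arrays, and the call supports nothing about AUS1. It is also of a type that may match more than 1 transcript. Leaving out wild type replicate 1 or either of deletion replicates 2 and 3 ended its call, as did dropping the filter (adjusted p between 0.0564 and 0.131), and without wild type replicate 2 it was too dim to be tested.

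The wider sterol and membrane lipid machinery was read from 6 lists, 81 genes in all. They were written from textbook knowledge, but with earlier results of these data known. Of the 78 genes tested, 5 were called higher and 3 lower, or 6.41% and 3.85%, beside 4.39% and 3.05% of all probe sets tested. Without the filter on dim probe sets, none of the 8 kept its call. Of 9 other sterol regulators, 1 fell: SUT2, paralog of the sterol uptake regulator SUT1, with a log2 change of -0.89 ± 0.18 (limma adjusted p = 0.00976). SUT1 went the other way, with all deletion arrays above the wild type. Its log2 change of 0.56 ± 0.17 had no call (limma adjusted p = 0.0671), though it was called higher with quantile normalization and with array weights. The median of this list was -0.01, and the call of SUT2 was lost without wild type replicate 1 or deletion replicate 2 (highest adjusted p over the settings 0.150). Of 10 genes that assist or degrade sterol enzymes, 1 fell: SPF1, an ATPase of the endoplasmic reticulum that affects Hmg2 turnover, by 0.46 ± 0.12 on the log2 scale (limma adjusted p = 0.0390), with a list median of -0.10. The call of SPF1 was lost when any 1 array was left out (highest adjusted p 0.146). It was also lost without a variance trend and with the replicate number as a block (limma adjusted p = 0.129 and 0.0859).

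Sterol transport, ester hydrolysis and acetylation, the longest of the lists, had 3 genes called higher and 1 lower of 23 tested, and a median of 0.10. YEH1, a hydrolase that frees sterol from its esters, had 561, 778.9 and 1063 on the deletion arrays, against 1970.7 and 2136.5 on the wild type arrays. It was lower on every deletion array, with a log2 change of -1.41 ± 0.23 (limma adjusted p = 0.00216), a larger change than that of any member tested. The other hydrolases of the list, YEH2 and TGL1, had changes of -0.16 ± 0.22 and 0.01 ± 0.18 and no call. PRY1 and PRY2, secreted sterol-binding proteins that carry acetylated sterols out of the cell, rose by 0.87 ± 0.13 and 0.61 ± 0.12 (limma adjusted p = 0.00111 and 0.00625). The call of PRY2 was also lost without a variance trend (adjusted p = 0.0552). LAM4, which moves sterol between the endoplasmic reticulum and the plasma membrane, rose by 0.69 ± 0.16 (limma adjusted p = 0.0231). Its call was lost without wild type replicate 2 and without either deletion replicate 2 or 3. With the replicate number as a block it was lost too (limma adjusted p = 0.103).

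**Figure D4:**
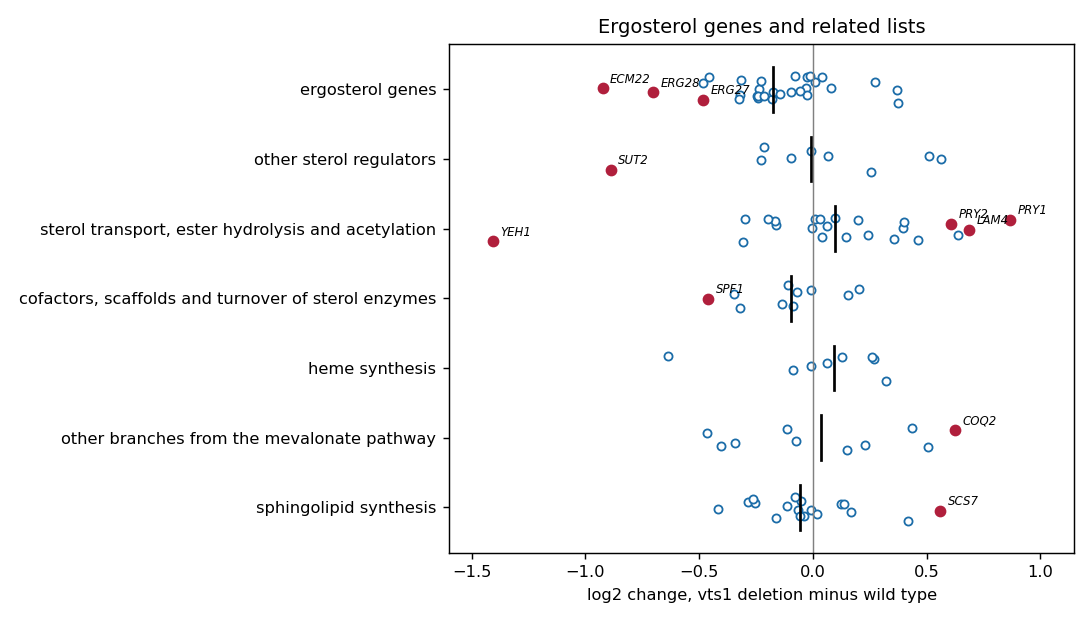
Log2 change, vts1 deletion minus wild type (x axis), of the tested ergosterol genes and of the genes in 6 related lists (rows); each point is 1 gene, filled and named where called at an adjusted p under 0.05, and the black bar is the median of the row. The ergosterol genes have a median of -0.18, and YEH1 lies farthest to the left at -1.41.

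Heme synthesis, which supplies the cofactor of Erg11 and Erg5, had no called gene among 8, with 1 higher and 1 lower at an unadjusted p under 0.05. HEM13, the oxygen-using coproporphyrinogen oxidase, had the lowest p, with a log2 change of -0.64 ± 0.19 (limma adjusted p = 0.0711). It was called lower with arrays scaled to one median, with array weights and without deletion replicate 3 (limma adjusted p = 0.0285, 0.0435 and 0.0480). In the other 13 of 16 settings HEM13 had no call. Of 10 tested genes on other branches from the mevalonate pathway, 1 rose: COQ2, of ubiquinone synthesis, by 0.63 ± 0.13 (limma adjusted p = 0.0117). Of 18 sphingolipid genes, 1 rose: SCS7, a hydroxylase of sphingolipid fatty acids, by 0.56 ± 0.12 (limma adjusted p = 0.0155). The call of COQ2 was lost without deletion replicate 2 (highest adjusted p over the settings 0.0889). That of SCS7 was lost without wild type replicate 1 and without either deletion replicate 2 or 3. The highest limma adjusted p of SCS7 over the settings, 0.131, came without the filter on dim probe sets. Both calls were also lost without a variance trend (limma adjusted p = 0.0538 and 0.0909). The same held with the replicate number as a block (limma adjusted p = 0.0503 and 0.0546). Medians were 0.10 for heme, 0.04 for the other branches and -0.05 for sphingolipids.

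The calls were then compared across 16 other settings. ERG28 was called in 15, ECM22 in 14 and ERG27 in 10. Several settings, such as the lower floor, left the log2 change of these genes as it was, so the counts are not of independent checks. Of the 27 members with no call, 25 had none in any of these settings, and the others, ERG4 and CYB5, were each called in 1.

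**Figure D5:**
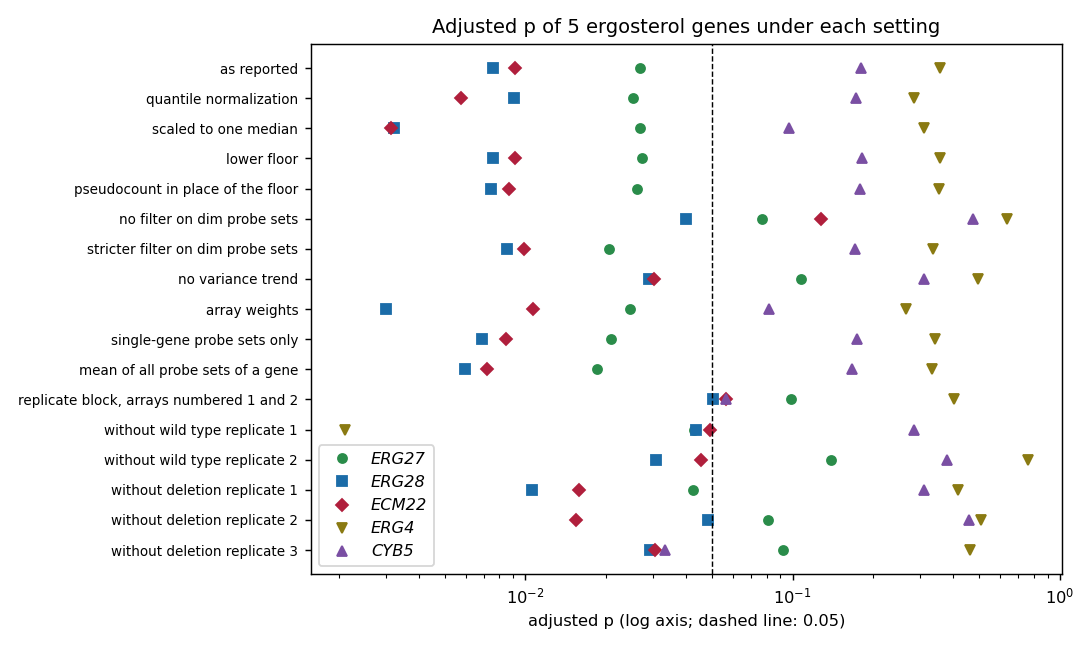
Limma adjusted p (x axis, log scale) of 5 ergosterol genes under the reported setting and each of 16 alternatives (rows), with a dashed line at 0.05. ERG28 and ECM22 lie left of the line in most rows, ERG27 in 10 of the 16 alternatives, and ERG4 and CYB5 in 1 each.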

How the data were processed

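Per the labels, total RNA was labelled with biotin and read on single-colour arrays, and MAS5 is named in the submitters' processing notes. The version of MAS5 is not given in the sources used here. Deposited values were linear signal intensity values, scaled per array before deposit: the mean after leaving out 2% at each end was 2502.47 to 2502.68. Equal scaling hides any change in total mRNA per cell.

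The 60 control probe sets were left out. Signals under 50.1 were raised to it, log2 was taken, and the 6294 probe sets with a mean of at least 250.3 were tested with limma 3.58.1 in R 4.3.3 (lmFit, eBayes with trend), group as the only term. The p-values are two-sided, adjusted over every probe set in the fit by Benjamini-Hochberg, at a threshold of 0.05. Intervals are the fit's 95% intervals. The background level is the 95th percentile of 28 controls without a target in yeast RNA. The number of arrays limits the precision. The procedure was also run on simulated data with independent noise on each array, which may not hold for these arrays. No result here rests on that run.

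The table held 9335 probe sets. Names came from the platform annotation, where 6504 probe sets have 1 gene, 328 several and 2443 none. Lists used the brightest probe set of a gene, and 4 symbols were matched through synonyms. Members, lists and tests were chosen with earlier results of these data known. Signals per array were given for members past the threshold, members whose groups did not overlap with a log2 change of at least 0.5, and the paralog pairs. Those of MVD1, ERG10, ERG1, ERG9, ERG25, ERG11, ERG4, CYB5, ATF2, AUS1 and YEH1 were added after they were seen. So were the values of YEH2, TGL1 and SUT1, and the counts of non-overlapping groups in the sterol transport list. From each list, the called genes were named, or the 1 with the lowest p.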

Additional observations from a re-analysis of the deposited data

How the results depend on the processing

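The number of members called higher was 0 and of members called lower 3. Without the filter on dim probe sets, 1 member was lower, and 54 probe sets were higher and 51 lower against 276 and 192 as reported. No gene of the related lists was then called (0 higher and 0 lower). Without a variance trend, 106 probe sets were lower and 2 related genes higher. With arrays scaled to one median or with array weights, 5 related genes were lower. With arrays left out in turn, 0 to 1 members were higher (1 without wild type replicate 1) and 2 to 3 lower. The probe sets numbered 176 to 320 higher and 94 to 161 lower, and the related genes 2 to 7 higher and 1 to 3 lower. With the replicate number as a block, on the arrays numbered 1 and 2, 0 members were lower, 141 probe sets were higher and 71 lower, and 2 related genes were higher and 2 lower. That fit has few arrays, and the adjusted p was 0.0503 for ERG28, 0.0564 for ECM22 and 0.0984 for ERG27. The labels share only a number. Deviations of same-numbered arrays from their group means correlated at -0.07 for both pairs. With 2 wild type arrays the wild type deviations mirror each other, so these values are not independent and cannot settle whether arrays were paired. Over all settings the members' median log2 change ran from -0.21 to -0.12, and 21 to 25 members had a negative one. Signs changed in 22 of 478 comparisons of a member with its reported value, in 10 members, all without a call as reported. The median over all probe sets was -0.03 with quantile normalization and -0.05 with median scaling. The ARE2 minus ARE1 difference stayed between 0.93 and 1.27 in the alternatives in which it was computed. A planned search of promoters for the sterol regulatory element was not run.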
